A study of Mus musculus with 8 samples.

Results

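The genes described here act in mitosis and in the G2 phase that leads to it. They were chosen by name, with earlier results of these data known. The list of 40 genes covers the mitotic kinases and cyclins, the centromere and chromosomal passengers, the spindle checkpoint, the spindle motors and the machinery of cytokinesis. All probe sets annotated to them were taken, which gave 66 probe sets for 38 of the 40 genes, out of 12393 genes with a probe set. The RNA of Ccnb1, which encodes cyclin B1, and of Cdca8, which encodes a chromosomal passenger protein, was not analysed here. All 38 genes passed the filter on low values that left 9295 genes for testing.

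RNA was measured on Affymetrix mouse arrays in differentiated inguinal adipocytes, with stromal-vascular (SV) cells of white fat from male C57BL/6J mice as the labelled source and no age given. The 4 groups, with 2 arrays each, were sh-PRDM16 cells with 1 µM rosiglitazone, sh-PRDM16 cells without it, sh-scr cells with 1 µM rosiglitazone and sh-scr cells without it. Groups with the drug are called treated below. All groups carried an shRNA, which was directed at PRDM16, a zinc finger protein that drives brown and beige fat genes, or was the control sh-scr, and rosiglitazone is a thiazolidinedione that activates the nuclear receptor PPARγ. The labels do not say how the shRNAs were delivered, whether cells were pooled or selected, or whether the biological replicates had separate animals as their source. P-values therefore measure the spread between these arrays, which may be technical. The RNA of Prdm16 itself was not analysed here, so which cells had the knockdown is known from the labels alone.

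A cell enters mitosis when cyclin B and Cdk1 become active, and it leaves mitosis when the anaphase promoting complex, an E3 ubiquitin ligase, has cyclins and securin degraded. Most genes of this programme are transcribed together late in the cell cycle and are silent in cells that have left it. Their promoters often carry CCAAT boxes, bound by the factor NF-Y, and a cell cycle genes homology region (CHR), bound by the MuvB complex, which activates with B-Myb and FoxM1 in dividing cells and represses with E2F and Rb-like proteins in resting cells. Mature adipocytes do not divide, whereas their stromal precursors can. The arrays measured whole cultures, where fewer cycling cells and less of these RNAs per cell cannot be told apart.

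The promoter letters were looked up first, since they show what these genes share apart from their names. RefSeq promoter windows (build GRCm38.p6, 250 bases before to 50 after the annotated start, the first window listed for each gene) were found for 34 of the 40 genes. Ccnb1 and Cdca8, whose RNA was not analysed, are among the 34. CCAAT, the NF-Y box, was searched on both strands. TTTGAA was searched on both strands as the canonical CHR. TTTAAA, which reads the same on both strands, was searched as its variant form. These letters do not overlap one another in any window printed here. CCAAT was present in 27 of the 34 windows (79.4%), against 38.1% of the 9882 windows of genes on the array, and was present at least 2 times in 58.8%, against 14%. TTTGAA was present in 26 windows (76.5%, against 13%), TTTAAA in 9 (26.5%, against 9.99%), and CCAAT together with either CHR form in 25 (73.5%, against 8.4%). Within 50 bases of the start, TTTGAA lay in 24 of the 34 windows (70.6%), against 3.16% of windows of genes on the array. The median CCAAT match began 67 bases upstream of the start, and the median TTTGAA match 2 bases downstream of it. A match of letters is a description and not a shown binding site.

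Windows are printed for 5 genes whose values are given in full below, to show this arrangement. All 5 hold both CCAAT and TTTGAA, which not every window does. Birc5 holds neither, Kif2c holds no CCAAT and Cenpe holds no TTTGAA. Nuf2, Nusap1 and Mad2l1 hold none of the letters searched. Capitals mark the NF-Y box letters and the letters of both CHR forms on either strand. On the reverse strand the NF-Y box reads ATTGG. On that strand the canonical CHR reads TTCAAA. The sequences run 5′ to 3′ along the gene, and the last 50 bases lie in the transcribed region. They are Ccnb2, chr9:70421505-70421804, - strand, with 3 CCAAT boxes whose starts are 33 bases apart, Plk1, chr7:122159185-122159484, + strand, Aurka, chr2:172370521-172370820, - strand, Cdc20, chr4:118437294-118437593, - strand, and Top2a, chr11:99024140-99024439, - strand, with 6 CCAAT boxes.
Ccnb2: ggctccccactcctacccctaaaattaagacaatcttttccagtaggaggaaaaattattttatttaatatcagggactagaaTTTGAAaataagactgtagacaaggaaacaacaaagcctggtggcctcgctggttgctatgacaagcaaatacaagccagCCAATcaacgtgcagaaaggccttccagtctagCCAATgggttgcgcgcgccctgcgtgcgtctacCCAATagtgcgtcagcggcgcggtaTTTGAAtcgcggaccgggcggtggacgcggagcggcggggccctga
Plk1: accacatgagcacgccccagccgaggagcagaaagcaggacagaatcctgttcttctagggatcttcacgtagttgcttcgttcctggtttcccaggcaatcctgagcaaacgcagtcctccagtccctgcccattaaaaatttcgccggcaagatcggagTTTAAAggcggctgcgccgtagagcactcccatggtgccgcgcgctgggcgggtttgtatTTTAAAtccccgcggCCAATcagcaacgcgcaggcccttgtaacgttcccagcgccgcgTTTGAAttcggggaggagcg
Aurka: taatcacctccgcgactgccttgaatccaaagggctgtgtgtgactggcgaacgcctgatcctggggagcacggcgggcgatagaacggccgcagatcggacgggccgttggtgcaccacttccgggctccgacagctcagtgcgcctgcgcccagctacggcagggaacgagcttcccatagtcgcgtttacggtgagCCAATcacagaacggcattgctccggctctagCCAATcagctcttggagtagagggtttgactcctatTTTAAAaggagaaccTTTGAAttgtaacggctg
Cdc20: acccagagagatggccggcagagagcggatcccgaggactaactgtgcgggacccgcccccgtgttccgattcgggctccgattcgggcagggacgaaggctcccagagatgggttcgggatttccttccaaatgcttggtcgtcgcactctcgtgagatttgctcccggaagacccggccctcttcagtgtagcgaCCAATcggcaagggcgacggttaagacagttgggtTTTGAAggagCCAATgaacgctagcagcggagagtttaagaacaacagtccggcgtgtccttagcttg
Top2a: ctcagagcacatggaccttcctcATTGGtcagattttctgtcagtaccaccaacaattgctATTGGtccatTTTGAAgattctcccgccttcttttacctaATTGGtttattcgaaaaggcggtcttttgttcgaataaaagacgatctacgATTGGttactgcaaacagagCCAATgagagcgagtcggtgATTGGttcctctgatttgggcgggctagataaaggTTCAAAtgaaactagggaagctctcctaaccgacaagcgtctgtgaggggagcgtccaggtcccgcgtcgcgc

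**Figure D1:**
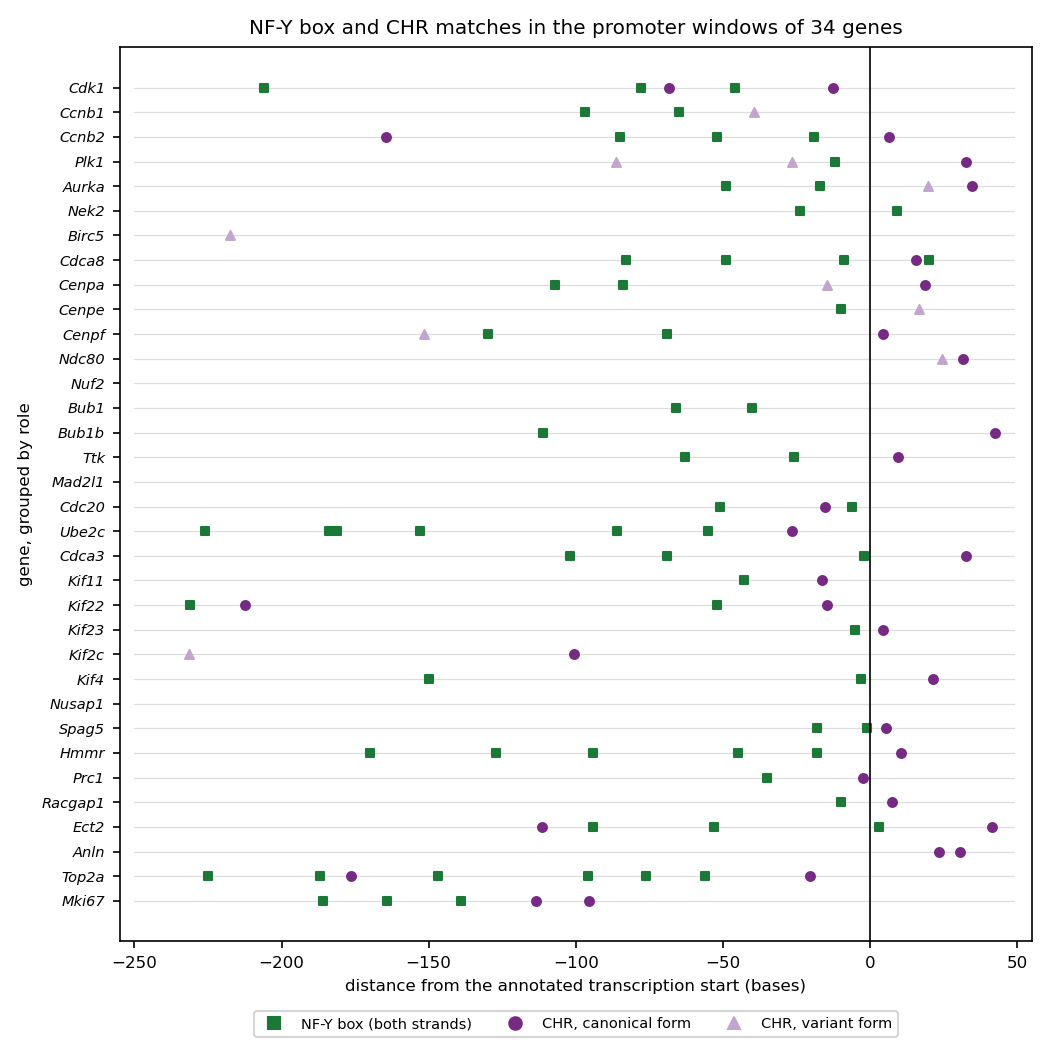
Positions of NF-Y boxes (squares) and of the canonical (circles) and variant (triangles) forms of the CHR in the promoter windows of 34 mitosis and G2/M genes, as distance in bases from the annotated start (vertical line), 1 gene per row. NF-Y boxes lie mostly in the 100 bases before the start (41 of 65 matches), and 25 of the 33 canonical CHR matches lie within 50 bases of it.

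The median array intensity lay between 101 and 136, replicate arrays correlated at r = 0.991 to 0.992 over all probe sets on the log2 scale, and no array was a copy of another (0.533 to 0.564% of values were identical between replicates). Arrays were kept on the deposited scale, on which the median change of all genes tested was log2 -0.16 for sh-PRDM16 against sh-scr in untreated cells, 0.15 in treated cells, -0.31 for rosiglitazone in sh-scr cells and 0.00 in sh-PRDM16 cells. Tests were made with limma on log2(intensity + 16), with adjusted p-values over all 9295 genes, and a gene was called at an adjusted p under 0.05. Of 6 adipocyte markers, Fabp4 was at 16409.9 to 22736 and Adipoq at 9965 to 15191 over the 8 arrays. In untreated sh-PRDM16 cells 5 of the 6 were lower than in untreated sh-scr cells, as given below. Intensities of different genes come from different probes and are not compared with each other.

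Mitotic genes were higher in sh-PRDM16 cells than in sh-scr cells, with and without rosiglitazone. In untreated cells 30 of the 38 genes were higher and 0 were lower, where 1.98% of all genes tested were higher and 15.7% lower. In treated cells 35 were higher and 0 lower, where 10.6% of all genes were higher and 4.76% lower. The 30 called in untreated cells were all among the 35. The median difference was log2 0.75 in untreated cells and 1.15 in treated cells, which lay 0.91 and 1.00 above the median of all genes. For 34 of the 38 genes all 4 sh-PRDM16 arrays were above all 4 sh-scr arrays, against 4.43% of all genes tested. The exceptions were Kif4, Racgap1, Nek2 and Ndc80.

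With each array centred on its median, 33 of the 38 were higher in untreated sh-PRDM16 cells (8.79% of all genes) and 35 in treated ones (12.4%), and quantile normalization gave the same 2 counts (10.5% and 12.6%). Without untreated sh-scr replicate 2 the count in untreated cells was 14, where 1.09% of all genes were higher, and without untreated sh-PRDM16 replicate 1 it was 17, where 0.925% were.

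**Figure D2:**
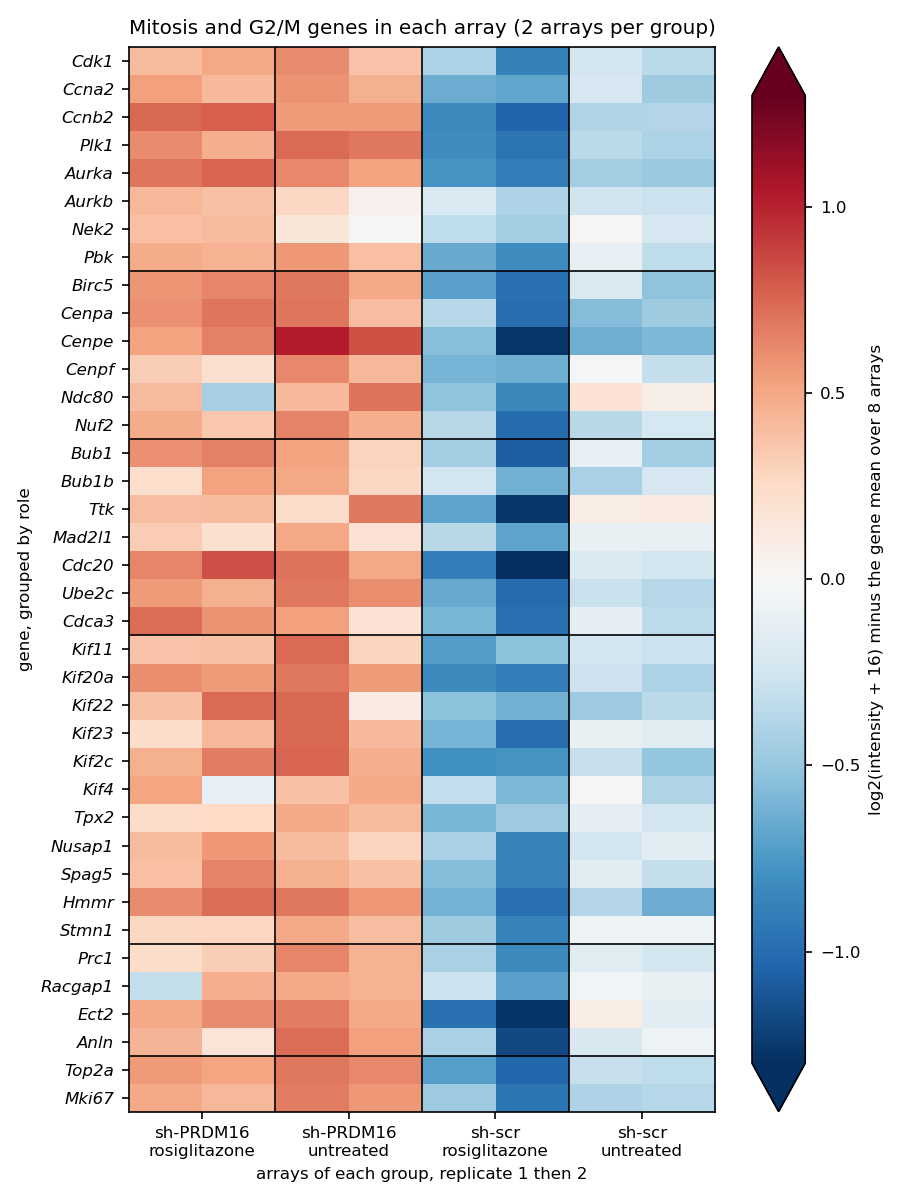
Log2(intensity + 16) of the 38 genes in each of the 8 arrays, minus the mean of the gene over all arrays, with genes grouped by role and arrays by group. The 4 sh-PRDM16 arrays are above the gene mean for most genes, and treated sh-scr replicate 2 is the lowest array for most.

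The summed picture per array was the same. The mean log2 level of the 38 genes was 8.58 and 8.59 in treated sh-PRDM16 cells, 8.72 and 8.57 in untreated sh-PRDM16 cells, 7.57 and 7.26 in treated sh-scr cells and 7.92 and 7.83 in untreated sh-scr cells. The mean of all genes tested on those arrays was 8.49 and 8.63, 8.59 and 8.41, 8.49 and 8.40, and 8.68 and 8.74 in the same order. The sh-PRDM16 arrays did not overlap the sh-scr arrays for these genes, while for all genes the groups overlapped. In treated sh-scr cells replicate 2 was below replicate 1 for 35 of the 38 genes, and for 31 after division by the array median. The same was not counted over all genes, whose mean was also lower in replicate 2, at 8.40 against 8.49.

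The summed markers of macrophages and leukocytes and those of adipocytes were lower in every sh-PRDM16 array than in any sh-scr array. The 11 macrophage and leukocyte markers with a probe set summed to 883 and 914 in treated sh-PRDM16 cells, 1174 and 1096 in untreated sh-PRDM16 cells, 3567 and 3571 in treated sh-scr cells and 5438 and 5974 in untreated sh-scr cells. With 1 of the 11 under the filter, 8 of the 10 that were tested were lower in untreated and 9 in treated sh-PRDM16 cells, among them Lyz2, a lysozyme, at log2 -3.69 and -3.62. The 6 adipocyte markers summed to 54005 and 57759 in treated sh-PRDM16 cells, 47146 and 41114 in untreated sh-PRDM16 cells, 60068 and 63662 in treated sh-scr cells and 60759 and 60256 in untreated sh-scr cells, and 5 were lower in untreated and 1 in treated sh-PRDM16 cells. Cidec, a lipid droplet protein, was at 3104 and 3648 in treated sh-PRDM16 cells, 235 and 222 in untreated sh-PRDM16 cells, 5565 and 5697 in treated sh-scr cells and 906 and 994 in untreated sh-scr cells.

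The 9 preadipocyte and fibroblast markers summed to 25793 and 26271 in treated sh-PRDM16 cells, 36022 and 31359 in untreated sh-PRDM16 cells, 22615 and 20389 in treated sh-scr cells and 33296 and 32559 in untreated sh-scr cells, with 0 higher and 2 lower in untreated sh-PRDM16 cells and 1 higher and 0 lower in treated ones. Of 6 smooth muscle and pericyte markers, 1 was higher in untreated and 2 in treated sh-PRDM16 cells, and of 5 endothelial markers tested 0 and 1 were lower. Lymphocyte markers were near the floor, with 4 of 5 under the filter. The part of these cell types in the difference of the mitotic genes was not tested.

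Among the kinases and cyclins, 6 of 8 genes were higher in untreated and 8 of 8 in treated sh-PRDM16 cells. Cdk1, the kinase that drives entry into mitosis, had an intensity of 1537 and 1645 in treated sh-PRDM16 cells, 1775 and 1495 in untreated sh-PRDM16 cells, 863 and 621 in treated sh-scr cells and 972 and 900.3 in untreated sh-scr cells. The arrays of sh-PRDM16 cells were all above those of sh-scr cells, by log2 0.79 (SE 0.17, adjusted p = 0.0139) in untreated and log2 1.10 (SE 0.17, adjusted p = 0.00437) in treated cells. Ccna2, which encodes cyclin A2 of S phase and G2, was at 701 and 648 in treated sh-PRDM16 cells, 728 and 665 in untreated sh-PRDM16 cells, 301 and 294 in treated sh-scr cells and 409 and 344 in untreated sh-scr cells, a difference of log2 0.86 (SE 0.14, adjusted p = 0.00309) untreated and log2 1.14 (SE 0.14, adjusted p = 0.00116) treated. Ccnb2, which encodes cyclin B2, a partner of Cdk1, was at 371 and 379 in treated sh-PRDM16 cells, 321 and 320.4 in untreated sh-PRDM16 cells, 114 and 96.3 in treated sh-scr cells and 159 and 160.4 in untreated sh-scr cells. Its groups did not overlap, and the difference was log2 0.94 (SE 0.13, adjusted p = 0.00141) in untreated and log2 1.69 (SE 0.13, adjusted p = 0.000108) in treated cells, the smallest adjusted p among the 38 genes.

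Plk1, the polo-like kinase of centrosome maturation and cytokinesis, was at 367 and 331 in treated sh-PRDM16 cells, 401 and 384 in untreated sh-PRDM16 cells, 127 and 114 in treated sh-scr cells and 179.6 and 172 in untreated sh-scr cells. In untreated cells it differed by log2 1.09 (SE 0.13, adjusted p = 0.000677), the smallest adjusted p of the list there, and in treated cells by log2 1.42 (SE 0.13, adjusted p = 0.000261). Aurka, the Aurora kinase of the centrosome and spindle poles, was at 591 and 617 in treated sh-PRDM16 cells, 565 and 524 in untreated sh-PRDM16 cells, 205 and 186 in treated sh-scr cells and 259 and 253 in untreated sh-scr cells, with log2 1.04 (SE 0.12, adjusted p = 0.000719) untreated and log2 1.56 (SE 0.12, adjusted p = 0.000139) treated. For both kinases the mean in sh-PRDM16 cells was over 2 times that in sh-scr cells, at ratios of 2.23 and 2.13 untreated and 2.90 and 3.10 treated for Plk1 and Aurka.

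Aurkb, the Aurora kinase of the chromosomal passenger complex, showed a smaller difference. Its intensity was 179 and 173 in treated and 158 and 135 in untreated sh-PRDM16 cells. In sh-scr cells it was 109.6 and 93.4 treated and 105 and 103 untreated. Aurkb passed in limma in treated cells at log2 0.71 (SE 0.14, adjusted p = 0.0108) but not in untreated cells at log2 0.43 (SE 0.14, adjusted p = 0.0564). On median-centred arrays its untreated difference was called, at log2 0.62 (adjusted p = 0.00662). Pbk, a mitotic protein kinase, was at 586 and 575 in treated sh-PRDM16 cells, 623 and 551 in untreated sh-PRDM16 cells, 258 and 229.7 in treated sh-scr cells and 385 and 326 in untreated sh-scr cells, with log2 0.70 (SE 0.14, adjusted p = 0.00964) untreated and log2 1.20 (SE 0.14, adjusted p = 0.00107) treated. Nek2, a kinase that separates the centrosomes, had 63.8 ± 5.87 in untreated sh-PRDM16 cells and 54.1 ± 8.27 in untreated sh-scr cells (SD, n = 2 each), and only its treated difference passed, at log2 0.79 (adjusted p = 0.00697).

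**Figure D3:**
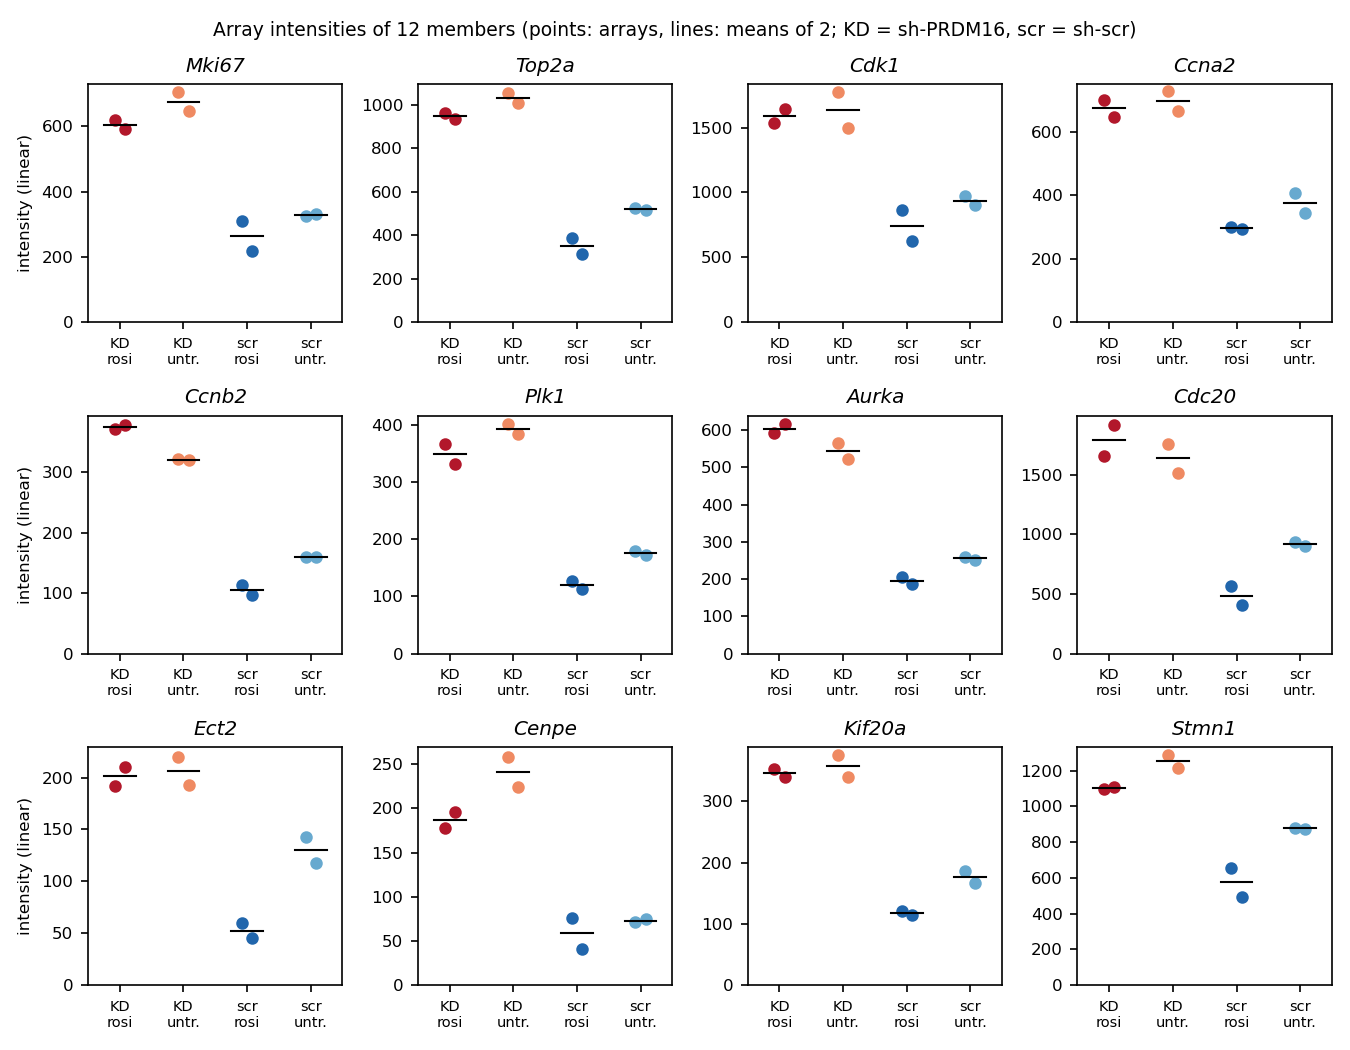
Linear array intensities of 12 of the genes, with 1 point per array and a line at the mean of each group of 2, for sh-PRDM16 (KD) and sh-scr (scr) cells with rosiglitazone (rosi) and untreated (untr.). In all 12 genes the 4 sh-PRDM16 arrays lie above the 4 sh-scr arrays. Most of the 12 were picked for a small adjusted p in these data, which favours such separation. Kif4, Racgap1, Nek2 and Ndc80, whose arrays overlap, are not shown. Among all 38 genes the arrays were separated for 34, against 4.43% of all genes tested.

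Chromosomal passenger and centromere genes were higher in 5 of 6 cases, in untreated and in treated sh-PRDM16 cells. Birc5, which encodes the passenger protein survivin, was at 932 and 974 in treated sh-PRDM16 cells, 1009.8 and 886 in untreated sh-PRDM16 cells, 375 and 308 in treated sh-scr cells and 537 and 426 in untreated sh-scr cells. All sh-PRDM16 arrays were higher, by log2 0.96 (SE 0.16, adjusted p = 0.00414) untreated and log2 1.44 (SE 0.16, adjusted p = 0.000814) treated. Cenpe, a kinesin of the kinetochore that congresses chromosomes, had 178 and 196 in treated sh-PRDM16 cells, 258 and 224 in untreated sh-PRDM16 cells, 76.3 and 40.4 in treated sh-scr cells and 71.2 and 74.3 in untreated sh-scr cells. It showed the largest untreated difference of the list, log2 1.53 (SE 0.21, adjusted p = 0.00148), and log2 1.49 (SE 0.21, adjusted p = 0.00262) in treated cells.

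Cenpa, the histone variant that marks centromeres, was higher by log2 1.06 (adjusted p = 0.00705) untreated and 1.33 (adjusted p = 0.00366) treated, Cenpf, a kinetochore protein, by 0.70 (adjusted p = 0.011) and 0.88 (adjusted p = 0.00531), and Nuf2, a subunit of the Ndc80 complex that holds microtubules, by 0.85 (adjusted p = 0.0184) and 1.10 (adjusted p = 0.00819). Ndc80 itself passed in neither, at 0.43 (adjusted p = 0.283) and 0.67 (adjusted p = 0.0978). Its treated sh-PRDM16 arrays differed most between replicates, at 104 and 50.8, against 46.8 and 34.5 in treated sh-scr cells.

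Spindle checkpoint genes and regulators of the anaphase promoting complex were higher in 4 of 7 cases in untreated and in 7 of 7 in treated sh-PRDM16 cells. Cdc20, the activator that the checkpoint holds back, was at 1661 and 1918 in treated sh-PRDM16 cells, 1756 and 1519 in untreated sh-PRDM16 cells, 569 and 404 in treated sh-scr cells and 935 and 904 in untreated sh-scr cells. It had the largest treated difference of the list, log2 1.86 (SE 0.18, adjusted p = 0.000341), against log2 0.82 (SE 0.18, adjusted p = 0.0128) in untreated cells. Among its sh-scr arrays both treated ones were below both untreated ones.

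Ube2c, the ubiquitin-conjugating enzyme of the complex, was at 1501 and 1413 in treated sh-PRDM16 cells, 1646 and 1554 in untreated sh-PRDM16 cells, 641 and 502 in treated sh-scr cells and 832 and 783 in untreated sh-scr cells, with log2 0.97 (SE 0.15, adjusted p = 0.0024) untreated and log2 1.34 (SE 0.15, adjusted p = 0.000775) treated. Cdca3, a part of a ligase that degrades the mitotic inhibitor Wee1, was at 478 and 433 in treated sh-PRDM16 cells, 415 and 324 in untreated sh-PRDM16 cells, 182 and 137 in treated sh-scr cells and 257 and 219 in untreated sh-scr cells, with log2 0.60 (SE 0.18, adjusted p = 0.0466) untreated and log2 1.44 (SE 0.18, adjusted p = 0.00132) treated. Among the checkpoint kinases and their partners, Bub1b was called in untreated cells, at log2 0.70 (adjusted p = 0.0259), while Bub1 at 0.68 (adjusted p = 0.0541), Ttk at 0.35 (adjusted p = 0.284) and Mad2l1 at 0.44 (adjusted p = 0.0912) were not. In treated cells all 4 were called, at 0.81 for Bub1b, 1.38 for Bub1, 1.38 for Ttk and 0.79 for Mad2l1. The untreated calls depended on scale. On median-centred arrays limma called Bub1 at 0.87 (adjusted p = 0.0297) and Mad2l1 at 0.63 (adjusted p = 0.0171) in untreated cells. Ttk was not called there, at 0.54 (adjusted p = 0.16).

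Kinesins and spindle proteins were higher in 10 of 11 cases in both comparisons, Kif4, a chromosome-bound kinesin, being the exception at log2 0.63 (adjusted p = 0.0819) and 0.66 (adjusted p = 0.0713). Kif20a, a kinesin of the central spindle, was at 352 and 340.4 in treated sh-PRDM16 cells, 375 and 339.6 in untreated sh-PRDM16 cells, 121 and 115 in treated sh-scr cells and 186 and 167 in untreated sh-scr cells, with log2 0.96 (SE 0.13, adjusted p = 0.00131) untreated and log2 1.43 (SE 0.13, adjusted p = 0.000257) treated. Kif2c, a kinesin that takes microtubules apart at centromeres, was at 279 and 324 in treated sh-PRDM16 cells, 347 and 282 in untreated sh-PRDM16 cells, 109 and 110.2 in treated sh-scr cells and 158 and 136 in untreated sh-scr cells, with log2 1.02 (SE 0.15, adjusted p = 0.00216) and log2 1.34 (SE 0.15, adjusted p = 0.000878). The groups of both kinesins were fully separated by shRNA.

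Hmmr, which organises spindle poles and binds hyaluronan, was at 459 and 498 in treated sh-PRDM16 cells, 483 and 443 in untreated sh-PRDM16 cells, 186 and 143 in treated sh-scr cells and 223 and 183 in untreated sh-scr cells, a difference of log2 1.13 (SE 0.16, adjusted p = 0.00177) untreated and log2 1.46 (SE 0.16, adjusted p = 0.000775) treated. Stmn1, which encodes the microtubule-destabilising protein stathmin, was at 1098 and 1110.1 in treated sh-PRDM16 cells, 1289 and 1213 in untreated sh-PRDM16 cells, 656 and 494 in treated sh-scr cells and 878 and 876 in untreated sh-scr cells. It had a smaller difference, log2 0.50 (SE 0.15, adjusted p = 0.0486) untreated, with the adjusted p close to the threshold, and log2 0.94 (SE 0.15, adjusted p = 0.00486) treated. The other members of this role that were called in both comparisons were Kif11, the motor of spindle bipolarity, Kif22, a chromosome-arm kinesin, Kif23, a central spindle kinesin, and the spindle assembly proteins Tpx2, Nusap1 and Spag5, with untreated differences of log2 0.55 to 0.84 and treated differences of 0.78 to 1.23.

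Cytokinesis genes were higher in 3 of 4 cases in both comparisons. Ect2, the exchange factor that activates RhoA at the cleavage furrow, was at 192 and 211 in treated sh-PRDM16 cells, 220.3 and 193 in untreated sh-PRDM16 cells, 59.6 and 45.3 in treated sh-scr cells and 143 and 117 in untreated sh-scr cells. Treated sh-scr cells stood lowest, below untreated sh-scr cells, and the difference was log2 0.61 (SE 0.16, adjusted p = 0.0275) untreated and log2 1.67 (SE 0.16, adjusted p = 0.000336) treated. Anln, a scaffold of the contractile ring, was higher by log2 0.76 (adjusted p = 0.0479) and 1.11 (adjusted p = 0.0146), and Prc1, which bundles the central spindle, by 0.74 (adjusted p = 0.0127) and 0.90 (adjusted p = 0.00723). Racgap1, the partner of Kif23 in centralspindlin, did not pass by the probe set with its highest mean, at 0.54 (adjusted p = 0.156) and 0.58 (adjusted p = 0.125). In the fit by probe set its other probe set was called in both, at log2 1.06 (adjusted p = 0.00218) and 1.01 (adjusted p = 0.00449).

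Mki67, the proliferation marker that coats mitotic chromosomes, was at 618 and 592 in treated sh-PRDM16 cells, 704 and 647 in untreated sh-PRDM16 cells, 309 and 219 in treated sh-scr cells and 325 and 333 in untreated sh-scr cells. Top2a, the topoisomerase that untangles sister chromatids, was at 962 and 934 in treated sh-PRDM16 cells, 1057 and 1009.5 in untreated sh-PRDM16 cells, 389 and 313 in treated sh-scr cells and 525 and 514 in untreated sh-scr cells. Both were higher in every sh-PRDM16 array than in any sh-scr array. Mki67 differed by log2 1.00 (SE 0.16, adjusted p = 0.0037) in untreated and log2 1.17 (SE 0.16, adjusted p = 0.00257) in treated cells, and Top2a by log2 0.97 (SE 0.14, adjusted p = 0.00183) and log2 1.40 (SE 0.14, adjusted p = 0.000445).

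Tested one by one, 62 of the 66 probe sets passed the filter, of which 35 were higher and 0 lower in untreated sh-PRDM16 cells (1.24% of all probe sets were higher) and 47 higher and 0 lower in treated ones (6.93%). In 16 genes with several tested probe sets, 2 had probe sets of opposite sign in untreated cells and 1 in treated cells. Those were Cdca3, where 2 dim probe sets gave log2 0.03 and -0.02, Spag5, where 1 dim probe set gave -0.11, and Kif2c in treated cells, where 1 dim probe set gave -0.44, none of these called. Aurkb, Cdc20, Kif22 and Kif2c are represented by probe sets of the kind that can hybridise with related sequences (suffix _x_at), so their signal is less certain as to the gene. Prc1, Spag5, Pbk and Stmn1 are represented by probe sets with the suffix _s_at, whose specificity was not examined.

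**Figure D4:**
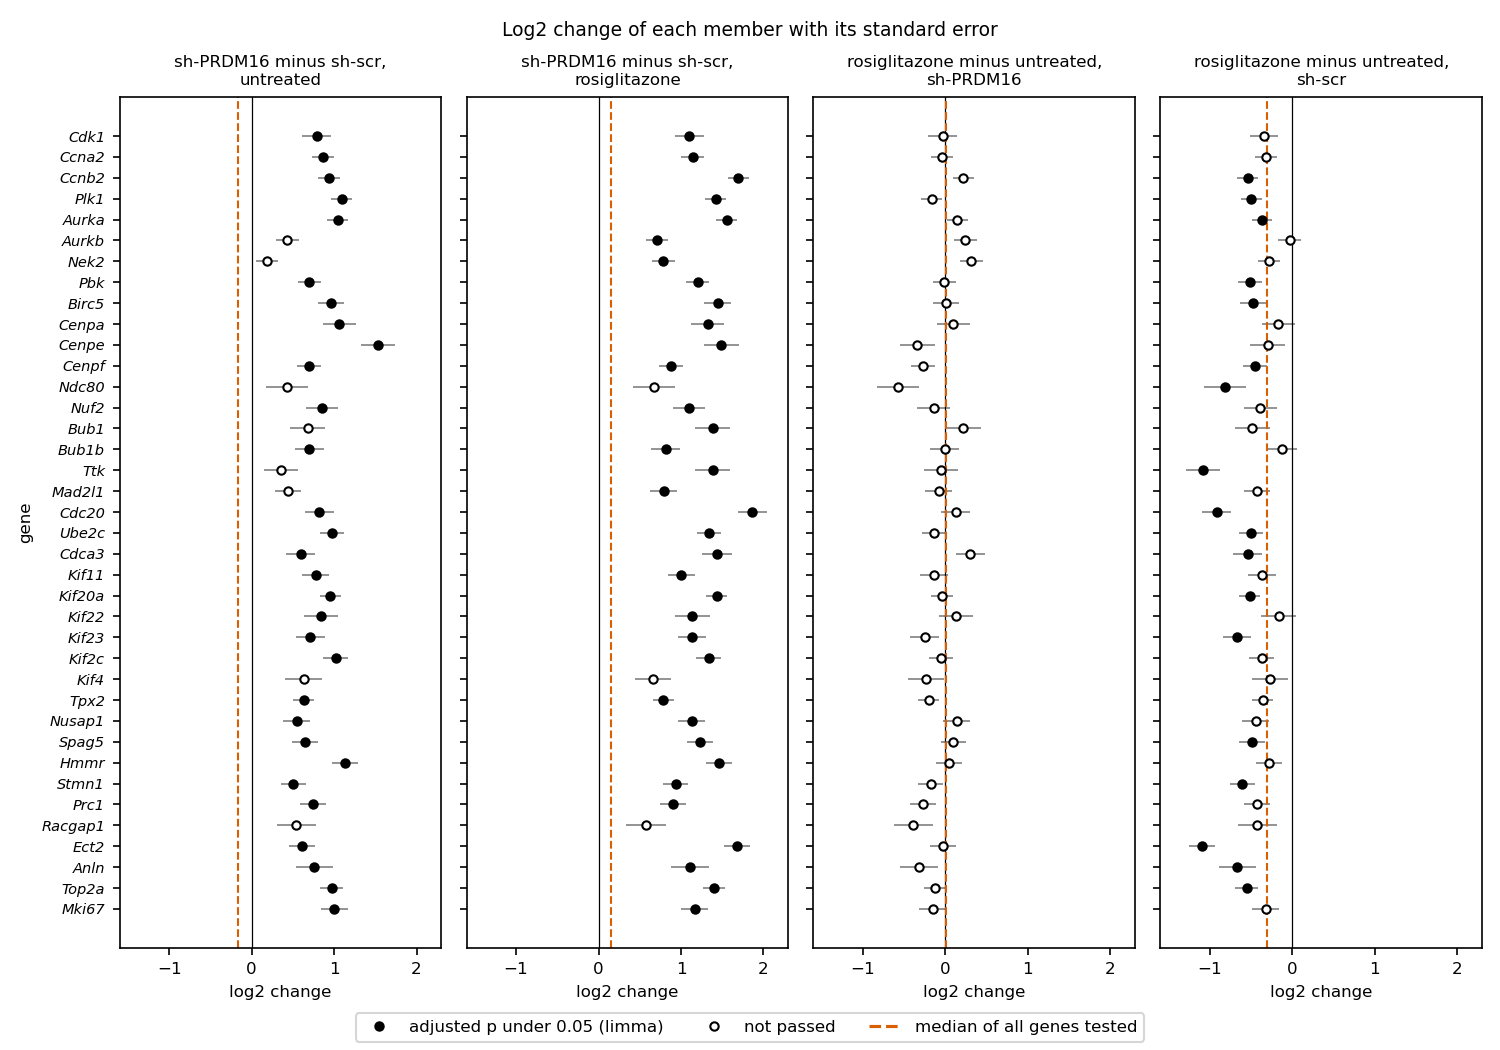
Log2 change of each of the 38 genes with its standard error in 4 comparisons, filled where the adjusted p of limma was under 0.05, with a dashed line at the median of all genes tested. Differences between sh-PRDM16 and sh-scr cells lie right of the dashed line for all 38 genes in both states. With rosiglitazone, Ect2, Ttk and Cdc20 in sh-scr cells lie at -1.09, -1.08 and -0.92, against a line at -0.31.

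The untreated and treated differences share no array. Across the 38 genes they correlated at r = 0.57, against 0.69 across all genes tested, as a description with both shRNAs shared and with genes that are not independent. Brighter genes had somewhat larger untreated differences (Spearman rho = 0.42 between mean intensity and log2 difference over the 38 genes, 0.27 for treated cells), and adding 16 to each intensity understates the change of dim genes. Whether the difference was larger in treated than in untreated cells is the interaction, given below with the rosiglitazone responses.

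In sh-scr cells part of these genes fell with rosiglitazone, as did many other genes. Of the 38, 18 fell and 0 rose, where 32.2% of all genes tested fell and 5.24% rose. The median change was log2 -0.44, which lay 0.13 below the median of all genes. By probe set 16 of 62 fell, against 25.4% of all. With arrays centred on their medians 2 fell, Cdc20 (log2 -0.62, adjusted p = 0.0182) and Ect2 (-0.80, adjusted p = 0.00673), where 11.9% of all genes fell, and with quantile normalization 4 fell, where 14.9% did. The count was 3 with treated sh-scr replicate 2 left out (8.78% of all genes fell). It was also 3 when the untreated sh-scr array left out was replicate 1 (13%) or replicate 2 (9.55%). Markers of other cell types fell in the same comparison, among them 8 of 9 of preadipocytes and fibroblasts, 5 of 6 of smooth muscle and pericytes, 3 of 5 of endothelium and 4 of 10 of macrophages and leukocytes, while 2 of 6 of adipocytes rose. In sh-PRDM16 cells 2, 3, 2 and 1 of these fell in the same order and 2 of adipocytes rose. There 3.34% of all genes tested fell and 10.2% rose. The gap between the beta-actin control probe sets at the 3′ and the 5′ end, a measure of RNA and labelling quality, was largest in sh-scr cells with the drug, where its log2 values were 0.38 and 0.49, against 0.32 and 0.30 in untreated sh-scr cells. In sh-PRDM16 cells it lay below the sh-scr values of the same treatment, at 0.33 and 0.34 treated and 0.25 and 0.29 untreated. The same gap for Gapdh was -0.35 and -0.33 in treated sh-PRDM16 cells, -0.41 and -0.45 in untreated sh-PRDM16 cells, -0.35 and -0.36 in treated sh-scr cells and -0.41 and -0.43 in untreated sh-scr cells, so it moved with treatment and overlapped between the shRNAs. The part of these cell types and of RNA quality in the falls, and of RNA quality in the sh-PRDM16 differences, was not tested.

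The largest falls on the deposited scale were those of Ect2 at log2 -1.09 (SE 0.16, adjusted p = 0.00205), Ttk, a checkpoint kinase, at log2 -1.08 (SE 0.21, adjusted p = 0.00666), and Cdc20 at log2 -0.92 (SE 0.18, adjusted p = 0.00666). Ttk was at 42.7 and 23.3 in treated and 85.0 and 86.6 in untreated sh-scr cells. The others that fell were Ndc80 (-0.81), Kif23 (-0.67), Anln (-0.67), Stmn1 (-0.61), Top2a (-0.55), Cdca3 (-0.54), Ccnb2 (-0.54), Kif20a (-0.52), Pbk (-0.51), Ube2c (-0.50), Plk1 (-0.50), Spag5 (-0.49), Birc5 (-0.47), Cenpf (-0.45) and Aurka (-0.37). Cdk1 at -0.35 (adjusted p = 0.135), Mki67 at -0.32 (adjusted p = 0.144), Ccna2 at -0.32 (adjusted p = 0.0889) and Aurkb at -0.03 (adjusted p = 0.857) were among the 20 that did not pass.

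In sh-PRDM16 cells none of the 38 genes was called with rosiglitazone in limma, where 13.5% of all genes tested were called. At an unadjusted p under 0.05 there were 2 of the 38 genes and 2557 of all 9295. The median change was log2 -0.05, against 0.00 for all genes. Single changes ran from -0.57 for Ndc80 to 0.31 for Nek2, the 2 genes with an unadjusted p under 0.05. Mki67 was at 618 and 592 in treated and 704 and 647 in untreated sh-PRDM16 cells, a change of log2 -0.15 (SE 0.16, adjusted p = 0.605). In 37 of the 38 genes the mean of treated sh-PRDM16 cells was above that of untreated sh-scr cells. The exception was Ndc80, at 104 and 50.8 in treated sh-PRDM16 cells against 86.6 and 79.5 in untreated sh-scr cells. How often this held among all genes was not counted. The mean log2 level of all genes tested was 8.49 and 8.63 in treated sh-PRDM16 cells and 8.68 and 8.74 in untreated sh-scr cells.

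The 2 rosiglitazone responses, which share no array, were compared by their interaction. The response was more positive in sh-PRDM16 than in sh-scr cells for 37 of 38 genes on the deposited scale, Cenpe being the exception, where it was more positive for 87.6% of all genes. It was more positive for 23 of 38 on median-centred arrays (53.6% of all genes) and for 17 of 38 after quantile normalization (51.7%). The median was log2 0.34 on the deposited scale, and the median of all genes was 0.33. None of the 38 genes passed in limma, where 0.753% of all genes tested were called. At an unadjusted p under 0.05 there were 12 of the 38 genes and 2375 of all 9295. Ect2 came nearest, with a difference of log2 1.06 (SE 0.22, adjusted p = 0.0669), followed by Cdc20 at log2 1.04 (SE 0.25, adjusted p = 0.0921) and Ccnb2 at log2 0.76 (SE 0.18, adjusted p = 0.0926). On median-centred arrays the median interaction of the 38 genes was 0.03 and that of all genes 0.02, and 0 of the 38 passed. A trended variance prior called 6 of the 38 (13.6% of all genes were called in this direction), a pseudocount of 64 called 5 (8.11%), and leaving out the lowest 50% of genes called 5 of the 25 that remained (16.4%).

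Other genes of the cell cycle were counted by lists chosen by name, also with earlier results of these data known. Of 38 further mitosis genes tested, 14 were higher and 0 lower in untreated sh-PRDM16 cells, with a median of log2 0.32, and 25 higher and 0 lower in treated ones, with a median of 0.77. Ccnf, the cyclin of an SCF ligase, differed by 1.01 (adjusted p = 0.00317) untreated, Kifc1, a minus-end kinesin, by 0.92 (adjusted p = 0.00329) and 1.32 (adjusted p = 0.000869) treated, and Cep55, a protein of abscission, by 0.84 (adjusted p = 0.00396) untreated. Incenp, the scaffold of the chromosomal passenger complex, was at 863 and 950.1 in treated sh-PRDM16 cells, 1029 and 932 in untreated sh-PRDM16 cells, 394 and 302 in treated sh-scr cells and 659 and 501 in untreated sh-scr cells, and was higher in both comparisons, at 0.75 (adjusted p = 0.019) and 1.35 (adjusted p = 0.00187). Of 26 replication and S phase genes 6 and 20 were higher and 0 lower, with medians of 0.32 and 0.63. Ccne1, which encodes cyclin E1 of the G1/S transition, differed by 0.65 (adjusted p = 0.0167) untreated and 1.10 (adjusted p = 0.00227) treated, Mcm5, a subunit of the replicative helicase, by 0.76 (adjusted p = 0.027) untreated, and Mcm2, of the same helicase, by 1.08 (adjusted p = 0.00361) treated. Condensin and cohesin genes were higher in 2 and 6 of 14 cases, with the smallest adjusted p in both comparisons for the condensin subunit Ncaph, at 0.75 (adjusted p = 0.00986) and 1.15 (adjusted p = 0.00199). The treated difference of Ncapd2, another condensin subunit, was 1.31 (adjusted p = 0.00234).

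Of 13 genes of the anaphase promoting complex and its partners Fzr1 and Ube2s, 0 were higher and 1 lower in untreated sh-PRDM16 cells. In treated ones 1 was higher and 0 lower. A single gene is 7.69% of this list, below the 15.7% of all genes that were lower untreated and the 10.6% that were higher treated. The 1 that was lower was the subunit Anapc13, at log2 -0.57 (adjusted p = 0.0199). The 1 that was higher was Ube2s, a chain-elongating conjugating enzyme, at log2 0.50 (adjusted p = 0.0342). Of 5 genes for G1 cyclins and their kinases 0 were called in untreated cells (limma, 0 at an unadjusted p under 0.05, against 2925 of all 9295 genes). In treated cells 1, Cdk2, was higher at 0.66 (adjusted p = 0.0167). Whether these lists differ from the mitosis and G2/M genes was not tested.

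Of 14 regulators of cell cycle transcription, 2 were higher in untreated and 6 in treated sh-PRDM16 cells, and 0 were lower. Mybl2, which encodes B-Myb, was dim, with 1 array near the added 16. Its intensity was 63.1 and 63.3 in treated and 64.8 and 42.3 in untreated sh-PRDM16 cells. In sh-scr cells it was 36.4 and 21.9 treated and 27.9 and 16.5 untreated. The difference in limma was log2 0.86 (adjusted p = 0.0261) untreated and 0.83 (adjusted p = 0.0349) treated. E2f1, an activator E2F, was higher in treated cells at 0.86 (adjusted p = 0.00261) but not called untreated, at 0.13 (adjusted p = 0.505). E2f8, an atypical repressor E2F that is itself a cell cycle gene, was at 147 and 151 in treated sh-PRDM16 cells, 159 and 135 in untreated sh-PRDM16 cells, 62.5 and 34.6 in treated sh-scr cells and 58.5 and 71.9 in untreated sh-scr cells, with 1.01 (adjusted p = 0.00977) and 1.39 (adjusted p = 0.00319). For Mybl2 and E2f8 the sh-PRDM16 arrays lay above the sh-scr arrays. Foxm1, the forkhead factor of this programme, was also dim. Its intensity was 39.9 and 57.6 in treated and 80.8 and 71.3 in untreated sh-PRDM16 cells. In sh-scr cells it was 57.4 and 58.5 treated and 23.7 and 69.4 untreated. Foxm1 passed in neither comparison in limma, at 0.66 (adjusted p = 0.169) untreated and -0.21 (adjusted p = 0.656) treated. It was singled out after its values were seen.

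Among 16 genes for CDK inhibitors and growth arrest, 1 was higher and 4 lower in untreated sh-PRDM16 cells, and 4 were higher and 1 lower in treated ones. The lower ones made up 25% of the list untreated and 6.25% treated, against 15.7% and 4.76% of all genes, and the higher ones 6.25% and 25%, against 1.98% and 10.6%. Cdkn2c, which encodes an inhibitor of Cdk4 and Cdk6, was at 1708 and 1992 in treated sh-PRDM16 cells, 1639 and 1466 in untreated sh-PRDM16 cells, 2072 and 2042 in treated sh-scr cells and 3344 and 3676 in untreated sh-scr cells, and was lower untreated at log2 -1.17 (adjusted p = 0.00068) but not called treated at -0.16 (adjusted p = 0.449). Cdkn2b, an inhibitor of the same kinases, was lower in both, at -1.01 (adjusted p = 0.00156) and -0.84 (adjusted p = 0.00556). Cdkn1c, an inhibitor of cyclin and CDK complexes, was higher in both, at 0.54 (adjusted p = 0.025) and 0.99 (adjusted p = 0.00235), and rose with rosiglitazone by 1.51 (adjusted p = 0.000127) in sh-PRDM16 and 1.06 (adjusted p = 0.00122) in sh-scr cells. The inhibitors did not share 1 direction.

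**Figure D5:**
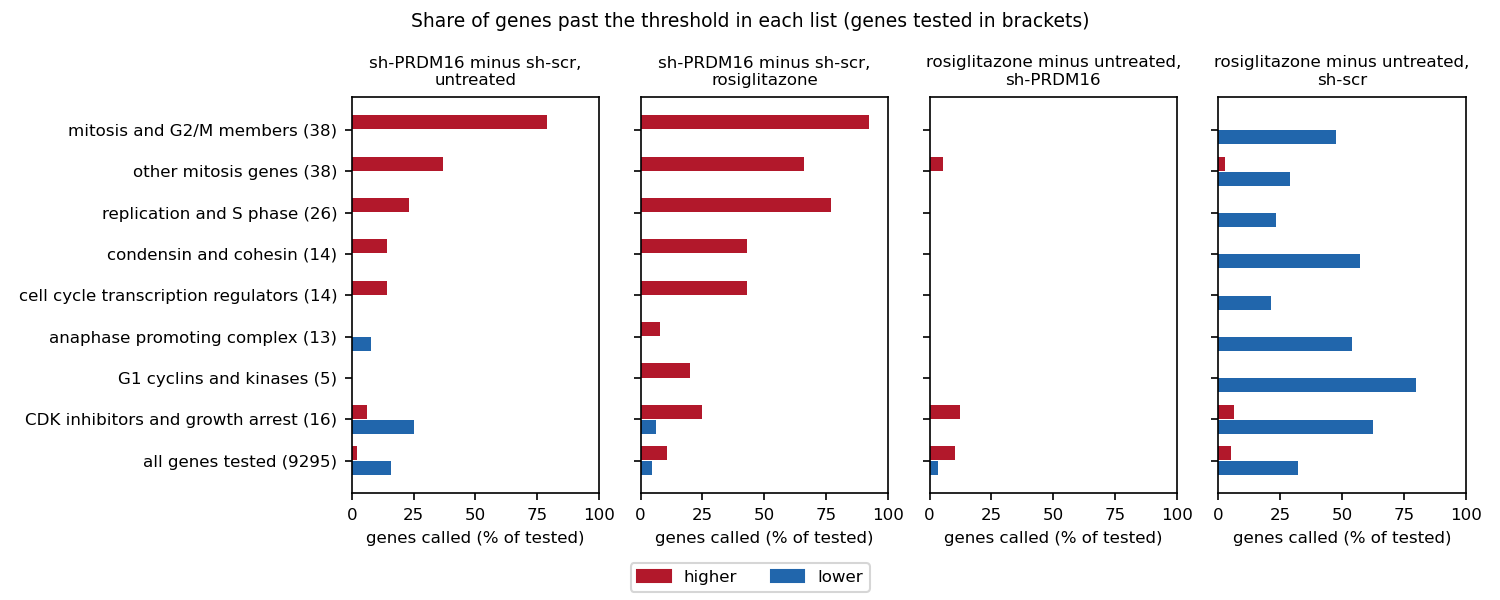
Share of the genes of each list that was higher (upper bar) or lower (lower bar) at an adjusted p under 0.05 in 4 comparisons, with the number of genes tested in brackets and all genes tested at the bottom. The mitosis and G2/M genes have shares of 78.9% and 92.1% higher in sh-PRDM16 cells without and with rosiglitazone, against 1.98% and 10.6% of all genes.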

How the data were processed

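The deposited values are intensities of Affymetrix mouse 430A_2 arrays, 1 value per probe set and array, on a linear scale; the software and scaling the authors used to make them are not given in the sources used. Genes were named from the platform annotation, with symbols kept as given there, for 20380 of 22690 probe sets that named 1 gene. Each gene was represented by the probe set with the highest mean, the lowest 25% of genes (mean intensity under 21.8) were left out, and log2(intensity + 16) was fitted with limma 3.58.1 in R 4.3.3 as group means over all 8 arrays, with Benjamini-Hochberg adjustment over 9295 genes. The fit has 4 residual degrees of freedom among arrays, and the median standard error was log2 0.15, so the number of arrays limits the precision. Steps were tested on simulated data. Replicate numbers were not used to pair arrays. Alternatives covered scale, filter, pseudocount, probe set choice, variance prior, replicate block, arrays in the fit and leaving out each array.

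The members and the other lists were chosen by name with earlier results of these data known. Values in every array were given for 7 members fixed by name and 12 with the smallest adjusted p in any comparison, and up to 3 called genes with the smallest adjusted p per list and comparison were named. Promoter windows came from RefSeq, build GRCm38.p6.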

Additional observations from a re-analysis of the deposited data

How the results depend on the processing

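The counts of genes higher in sh-PRDM16 cells stayed within 1.5 times of the reported count under every alternative of scale, filter, pseudocount, probe set choice, variance prior and arrays in the fit, and under the replicate block (30 untreated and 36 treated). With 1 array left out they ran from 14 to 31 untreated and from 29 to 35 treated, where the lone array of a group was assumed to vary like the other groups; the low untreated counts came without untreated sh-scr replicate 2 (14) and without untreated sh-PRDM16 replicate 1 (17). The 18 falls with rosiglitazone in sh-scr cells became 2 on median-centred arrays, 4 after quantile normalization and 10 with no filter, and ran from 3 to 24 with 1 array left out (24 without treated sh-scr replicate 1). The interaction called 5 genes with the lowest 50% of genes left out, 5 with a pseudocount of 64 and 6 with a trended prior, and 0 to 1 with 1 array left out. The response in sh-PRDM16 cells called 1 gene as lower with a pseudocount of 64 and 0 to 1 with 1 array left out. The causes were not tested. Where no share of all genes is printed beside a count, here or above, that count cannot be read as particular to these genes. The replicate block gave 17 falls in sh-scr cells, 0 calls in sh-PRDM16 cells and 0 for the interaction. Deviations of same-numbered arrays correlated at r = -0.02 to 0.04. With 2 arrays per group, these values cannot show whether same-numbered arrays shared an animal, a culture or a day. For the 19 genes given in every array, 0 called changes reversed, 100 lost and 23 gained their call, and 1553 kept their direction and side of the threshold over all alternatives and comparisons. Dim genes are limited by signal near the added 16, and 2 arrays per group by the spread they can show.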
